A study of Mus musculus with 16 samples.

Results

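The genes that encode the proteins of the cytosolic ribosome were examined in deposited peak lists of Meis1 and Hoxb13 chromatin immunoprecipitation and sequencing (ChIP-seq) from mouse heart ventricles. They were chosen by symbol alone: protein-coding genes named Rpl or Rps with a number, or Rplp or Rpsa, without the kinases of the Rps6k family and without pseudogenes. This rule found 89 of the 21887 protein-coding genes on chromosomes 1 to 19, X and Y. Of these, 31 encode proteins of the small subunit, 43 proteins of the large subunit and 3 the stalk proteins (Rplp0, Rplp1 and Rplp2). The other 12 carry a ribosomal protein name but are paralogs, retrogenes or proteins named for a partner, such as Rpl3l and Rps19bp1. The rule itself used no measured value, but the members were chosen with earlier results of these data known.

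Meis1 and Hoxb13 are homeodomain transcription factors that have been studied as regulators of the time after birth at which heart muscle cells leave the cell cycle. Paromomycin and neomycin (Paro/Neo) are aminoglycoside antibiotics, and the study asked how this drug pair alters the binding of both factors. Mice received Paro/Neo at 150 mg/kg into the peritoneum, 2 times a day for 7 days from postnatal day 7, or phosphate-buffered saline as vehicle (control), and ventricles were taken on postnatal day 15. For each antibody there were 2 control and 2 Paro/Neo libraries, 8 in all, with 1 peak list each, and a further 8 input libraries are not analysed here. The labels give no genotype, strain or sex for any group. Ventricles of 2 hearts served as duplicates, which can mean a pool per library or 1 heart per library. The antibody named for Meis1 was raised against Meis1/2, and by their title styles the Meis1 and Hoxb13 libraries form separate sample sets, so antibody and sample set cannot be told apart. The names of the second-replicate Meis1 lists carry the letter of the opposite group, and the labels were followed. In whole ventricles, weak binding in all cells and binding in a few cells cannot be told apart.

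The Meis1 control lists were 3529 (replicate 1) and 3176 (replicate 2) peaks long, and the Meis1 Paro/Neo lists 1541 and 1025. For Hoxb13 the control lists were 5202 and 1121 peaks long and the Paro/Neo lists 821 and 16963, in the same order. The Hoxb13 lists of control replicate 1 and Paro/Neo replicate 2 are called the long lists here. Sequencing depth is unknown, so an absent peak carries no detection limit. Of 6 cardiomyocyte marker genes, 5 or 6 had a peak in every Hoxb13 library and 3 to 5 in every Meis1 library. The lowest share was 83.3% in Hoxb13 and 50% in Meis1, where other genes of similar length reached at most 51.8% and 12.3%. Of 4 endothelial markers, 2 had a peak in every Meis1 library, where the strongest at Pecam1 reached percentile 97.7, and 3 and 4 had one in the long Hoxb13 lists. Genes as long as the endothelial markers had a share of at most 14.1% in Meis1, and of 28.9% and 57.0% in the long lists. Of 4 fibroblast markers, 1 and 4 had a peak in the long Hoxb13 lists and none in the other libraries. Genes of similar length had shares of 26.9% and 53.3% in those lists, so the 1 of 4 (25%) lay near background. Of 3 leukocyte markers, at most 1 had a peak in any Hoxb13 library and none had one in Meis1, and of 3 erythroid markers only 1 had a peak, in Hoxb13 Paro/Neo replicate 2. The leukocyte share was 33.3% in each long list, where genes of similar length had 25.4% and 48.3%. It was also 33.3% in Hoxb13 control replicate 2, against 5.92%. The erythroid share of 33.3% stood against 23.7%. None of these marker differences was tested.

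Ribosomal proteins bind ribosomal RNA and build, with it, the subunits that decode messenger RNA and join amino acids. Their genes are short, expressed in every cell, and transcribed at rates that keep the proteins in balance. Many of them begin transcription at a C within a run of pyrimidines, the terminal oligopyrimidine motif, through which the mTOR pathway and Larp1 control the translation of their messages. In the newborn heart, protein synthesis supports the growth of muscle cells as they stop dividing. The 89 genes span 374 to 16779 bp with a median of 3183 bp, against 17169 bp for all protein-coding genes. Since long genes catch more peaks, most shares of the whole set stand beside those of other genes in the same length classes. There were 20 classes of equal gene number, and such genes are called length-matched. For the subunits and the paralogs, length-matched shares of their own are not given.

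Because many Hoxb13 peaks lay over gene starts, the sequences around 6 starts are shown, chosen after their values were seen to span the kinds of start found. Each runs from 200 bases before the start to 9 bases after it on the coding strand, 5′ to 3′, from RefSeq for GRCm38.p6, whose coordinates are those of mm10. Capitals mark matches on either strand to a Meis motif (TGACAG), a Hoxb13 motif (TTTATNG), an ETS motif (CCGGAAG), a YY1 motif (AAGATGGC) or an NFY motif (CCAAT). The starts of Rps25 (chr9:44407514-44407723, plus strand), Rps3a1 (chr3:86142659-86142868, minus strand) and Rpl39 (chrX:37085213-37085422, minus strand) lay under some of the strongest Hoxb13 peaks. The start of Rpl7a (chr2:26910607-26910816, plus strand) was covered in 3 Hoxb13 libraries. The start of Rpl15 (chr14:18270977-18271186, minus strand), a C followed by pyrimidines, lay under the weakest peak at any member of the longest list. Rps4x (chrX:102189382-102189591, minus strand) had no peak in any of the 8 libraries.
Rps25: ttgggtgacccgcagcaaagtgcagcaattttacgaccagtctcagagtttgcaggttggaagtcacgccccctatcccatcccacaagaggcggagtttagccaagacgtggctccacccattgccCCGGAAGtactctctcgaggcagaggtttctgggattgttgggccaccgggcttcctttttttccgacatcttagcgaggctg
Rps3a1: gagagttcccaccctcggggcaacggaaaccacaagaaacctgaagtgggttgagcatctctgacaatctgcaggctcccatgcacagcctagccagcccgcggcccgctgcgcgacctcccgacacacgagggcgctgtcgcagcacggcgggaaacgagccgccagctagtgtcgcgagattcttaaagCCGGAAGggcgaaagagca
Rpl39: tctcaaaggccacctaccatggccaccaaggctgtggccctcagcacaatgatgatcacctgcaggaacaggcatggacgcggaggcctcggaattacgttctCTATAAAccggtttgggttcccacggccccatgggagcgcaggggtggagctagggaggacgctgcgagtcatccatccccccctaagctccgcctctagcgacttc
Rpl7a: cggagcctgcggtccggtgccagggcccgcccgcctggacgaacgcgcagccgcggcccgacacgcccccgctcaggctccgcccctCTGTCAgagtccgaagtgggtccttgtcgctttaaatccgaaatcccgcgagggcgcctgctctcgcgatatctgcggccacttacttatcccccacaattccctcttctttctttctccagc
Rpl15: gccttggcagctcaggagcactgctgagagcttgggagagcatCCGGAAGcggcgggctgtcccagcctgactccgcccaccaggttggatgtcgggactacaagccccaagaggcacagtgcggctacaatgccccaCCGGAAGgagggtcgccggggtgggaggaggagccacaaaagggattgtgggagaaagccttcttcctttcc
Rps4x: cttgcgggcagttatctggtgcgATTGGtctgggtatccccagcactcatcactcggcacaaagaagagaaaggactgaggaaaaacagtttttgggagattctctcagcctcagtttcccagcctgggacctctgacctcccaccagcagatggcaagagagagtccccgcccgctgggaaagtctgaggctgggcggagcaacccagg
The ETS motif is present 1 time in the sequences of Rps25 and Rps3a1 and 2 times in that of Rpl15. The match in Rpl7a is to the Meis motif, in Rps4x to the NFY motif and in Rpl39 to the Hoxb13 motif, whose reverse complement CNATAAA shares letters with a TATA box.

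Meis1 peaks were rare at ribosomal protein genes. In the Meis1 control libraries, 2 members each had a peak in the gene body or the 5 kb on either side, 2.25% in both. The length-matched shares were 3.42% and 2.81%, and the shares of all protein-coding genes were 8.59% and 8.21%. Neither Paro/Neo library had a peak at any member, where length-matched shares were 1.29% and 0.895% and the shares of all genes 4.07% and 2.83%. No member held a Meis1 region called in 2 or more libraries, against 6.19% of all genes and 2.15% of length-matched genes, a share at which a set of this size would hold 1.91 members. The difference from other short genes thus amounts to fewer than 2 genes.

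The 4 Meis1 peaks lay at different genes, each in a single library labelled control. Were the second replicates exchanged, as the names of their lists have it, the peaks at Rpl41 and Rps29 would belong to Paro/Neo. In control replicate 1, a peak of fold 5.06 lay 3548 bp downstream of Rpl24, inside the neighbouring gene Zbtb11, at the 59.9th percentile of fold in its list. In the same library a peak of fold 4.40 lay 245 bp upstream of Rps18, inside Vps52, at percentile 39.4. In control replicate 2, a peak of fold 4.22 covered the start of Rpl41, the gene of the shortest ribosomal protein, at percentile 29.8, and was the only Meis1 peak over an annotated member start. A peak of fold 4.27 overlapped an end of Rps29 at percentile 31.7. None of these peaks was among the strongest 10% of its list.

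Hoxb13 peaks were found at most ribosomal protein genes, but almost only in the long lists. In control replicate 1, 47 members had a peak, 52.8%, against 19.8% of length-matched genes and 24.2% of all genes. Paro/Neo replicate 2 had a peak at 80 members, 89.9%, against 34.2% of length-matched genes and 46.5% of all genes. The ratio of members to matched genes was 2.66 in the former and 2.63 in the latter, so both long lists showed about the same relative excess. Control replicate 2 had a peak at 3 members (3.37%, matched 5.91%, all genes 5.79%). Paro/Neo replicate 1 had a peak at 6 members (6.74%, matched 4.15%, all genes 4.2%). Each group thus holds a library with a large excess and a library near the background.

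**Figure D1:**
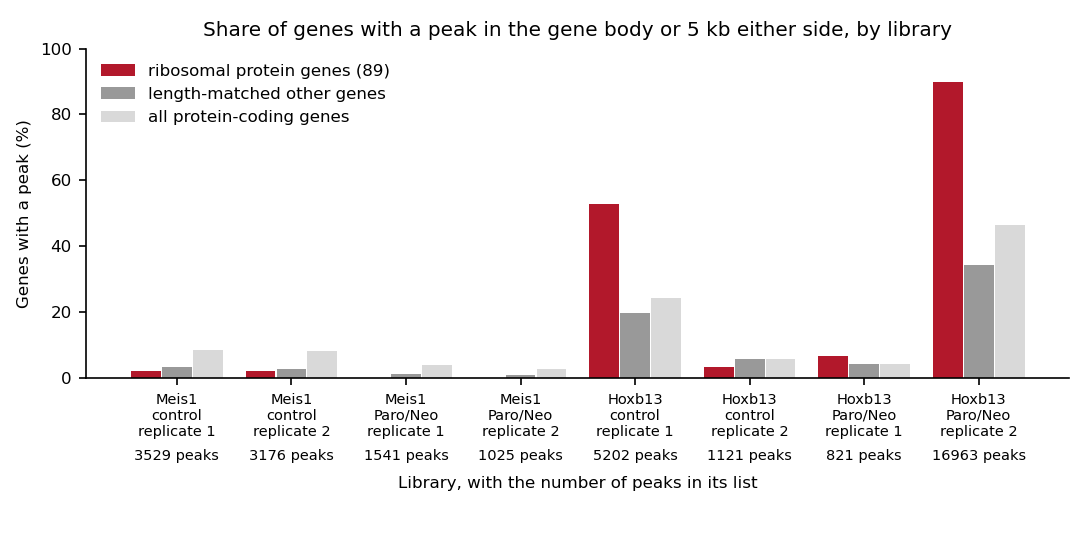
Percent of ribosomal protein genes (red), of length-matched other genes (dark grey) and of all protein-coding genes (light grey) with a peak in the gene body or 5 kb on either side (vertical axis), for each library (horizontal axis, with its number of peaks). The red bars stand far above the grey ones in Hoxb13 control replicate 1 (52.8%) and Hoxb13 Paro/Neo replicate 2 (89.9%), and at 6.74% or less in the other 6 libraries.

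With the lists as deposited, the treatment groups did not differ beyond the spread between libraries. For each library, the excess was taken as the percent of members with a peak minus the length-matched percent. In Meis1 it was −1.17 and −0.56 points in control and −1.29 and −0.89 points in Paro/Neo, and the group means of −0.867 ± 0.431 and −1.09 ± 0.277 points (SD, n = 2 each) differed by −0.224 points (exact two-sided permutation p = 0.667). In Hoxb13 it was 33.0 and −2.54 points in control and 2.60 and 55.7 points in Paro/Neo. The Hoxb13 group means of 15.2 ± 25.1 and 29.1 ± 37.5 points (SD, n = 2 each) differed by 13.9 points (exact two-sided permutation p = 0.667), and the groups overlap. With 2 libraries against 2 the exact test cannot give a p below 0.333. With peaks of a −log10 q of at least 3, the Meis1 groups did not overlap: the excess was −0.0931 and 0.262 points in control and −1.01 and −0.788 points in Paro/Neo, a difference of −0.985 points (exact permutation p = 0.333, the smallest possible), while the members with a peak stayed at 2 and 2 against 0 and 0. The treatment difference was 14.1 points larger in Hoxb13 than in Meis1 (exact permutation p = 0.444, smallest possible 0.0556). The mean excess was 23.2 points higher in Hoxb13 than in Meis1 libraries (exact two-sided permutation p = 0.143, smallest possible 0.0286). Adjusted by Benjamini-Hochberg over these 4 comparisons, the permutation p-values were 0.571 for the antibodies and 0.667 for the others. The Hoxb13 treatment difference was −12.6 points without Paro/Neo replicate 2 and −3.86 points without control replicate 2, against 31.7 points without control replicate 1 and 40.4 points without Paro/Neo replicate 1. The excess over matched genes in the long lists is described per library and has no test between libraries.

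Overlapping peaks of the 4 Hoxb13 libraries were joined into regions, each counted for every library with a peak in it. Of the 89 members, 45 (50.6%) held a Hoxb13 region called in 2 or more libraries, against 22.9% of all genes and 19.2% of length-matched genes. Without Paro/Neo replicate 2 this number was 6, and without control replicate 1 it was 9. The shares of other genes with a library left out are not given here, so these counts do not show how the excess changed. With all libraries kept, 8 members (8.99%) held a region called in 3 or more, close to the 6.84% of matched and 6.79% of all genes. Regions called in all 4 libraries were held by 3 members (3.37%), against 3.10% and 2.84%. From 3 libraries on, the members' share thus lay near that of other genes. Counted by peaks in the window, 36 members had a peak in 1 Hoxb13 library, 40 in 2, 4 in 3 and 2 in all 4, and 7 had none. Of the 47 members with a peak in control replicate 1, 45 also had one in Paro/Neo replicate 2, which is 95.7% of the former and 56.2% of the 80 in the latter. Of all 89 members, 89.9% had a peak in Paro/Neo replicate 2 and 52.8% in control replicate 1, so both shares lay near those of all members. The same overlap over all genes is not given here.

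**Figure D2:**
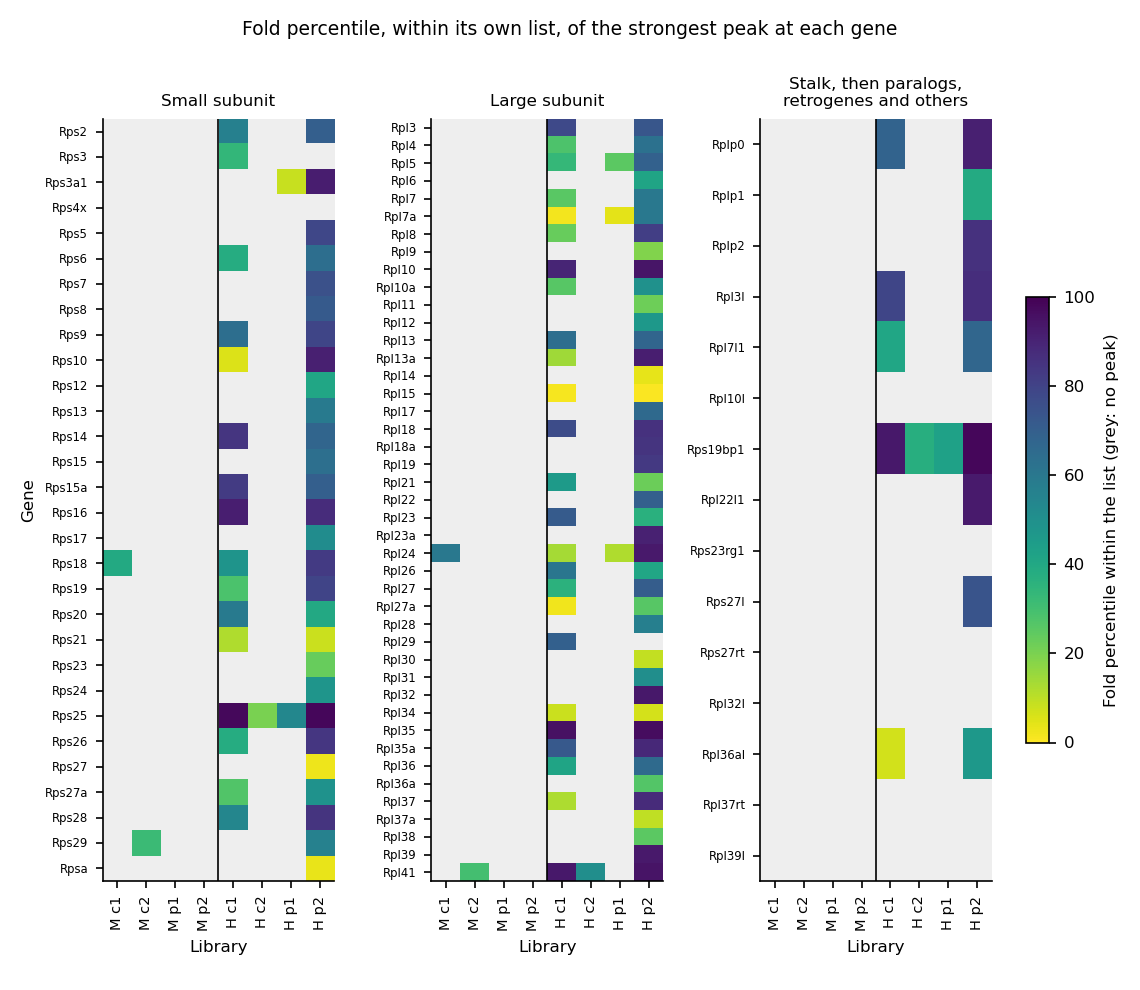
Fold percentile within its own list (colour, 0 to 100; grey for no peak) of the strongest peak at each ribosomal protein gene (rows, by subunit) in each library (columns; M is Meis1, H is Hoxb13, c is control, p is Paro/Neo, and the number is the replicate). The columns H c1 and H p2 are filled for 46 and 79 of the 88 members drawn, while the 4 Meis1 columns together hold 4 filled cells.

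Shares were also read in shorter and stricter lists. When every list was reduced to its strongest 821 peaks, the length of the shortest list, Hoxb13 control replicates 1 and 2 had peaks at 7 and 2 members and Paro/Neo replicates 1 and 2 at 6 and 3. These counts are 7.87%, 2.25%, 6.74% and 3.37%, against length-matched shares of 4.78%, 4.50%, 4.15% and 4.47%. The shares of all genes were 4.71%, 4.37%, 4.20% and 4.64%. No Meis1 list of that length had a peak at any member. There, length-matched shares ran from 0.652% to 0.828% and shares of all genes from 2.23% to 2.41%. Such matched shares are too low for 89 genes to tell members from other short genes. Among equally long lists of the strongest peaks the members were therefore close to other short genes. With peaks of a −log10 q of at least 3, 11 members had a peak in Hoxb13 control replicate 1 (12.4%, matched 8.21%, all genes 8.89%) and 55 in Paro/Neo replicate 2 (61.8%, matched 20.9%, all genes 26.8%). The short lists had 1 each, 1.12%, against matched shares of 2.33% and 1.33%. At this stricter limit the members thus stood far above matched genes in Paro/Neo replicate 2 alone.

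Many Hoxb13 peaks at ribosomal protein genes lay at the start of transcription. The RefSeq promoter table gave a start and strand for 69 of the 89 members and for 17492 protein-coding genes. In Paro/Neo replicate 2, peaks covered the start of 48 of these 69 members (69.6%), against 22.3% of length-matched genes and 29.1% of all genes with an entry. The number in control replicate 1 was 19 (27.5%), against 9.76% and 12.2%. Paro/Neo replicate 1 covered 3 starts, those of Rpl5, Rpl7a and Rps3a1 (4.35%, matched 1.02%, all genes 1.18%), and control replicate 2 covered none (matched 1.91%, all genes 1.88%). Starts covered in both long lists numbered 15, and starts covered in either numbered 52, without the same counts over other genes. The centres of 24 of 48 peaks in control replicate 1 and of 48 of 109 peaks in Paro/Neo replicate 2 lay within 250 bp of the nearest start. These distances were not set beside those of peaks at other genes. Starts of other genes were covered by 1987 of all 5202 peaks in control replicate 1 and 4714 of 16963 in Paro/Neo replicate 2. Of peaks lying wholly outside their member, 6 were upstream and 19 downstream in control replicate 1, and 10 upstream and 38 downstream in Paro/Neo replicate 2. For the 20 members without an entry, 10 had a peak in control replicate 1 and 19 in Paro/Neo replicate 2, where the shares of all genes were 24.2% and 46.5%.

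**Figure D3:**
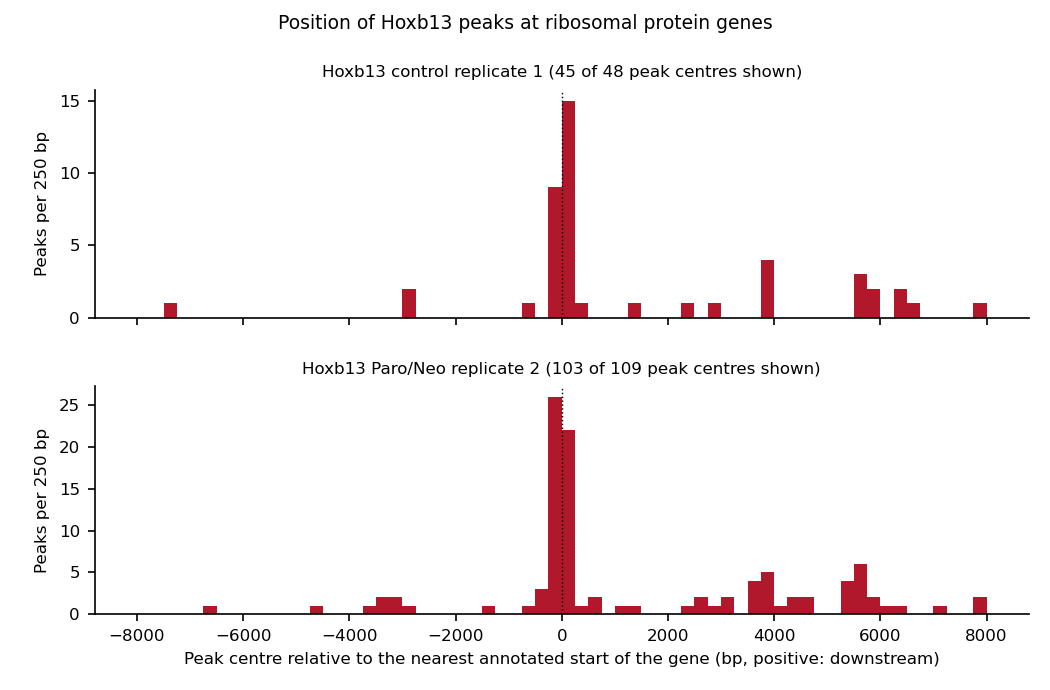
Distance of Hoxb13 peak centres from the nearest annotated start of their ribosomal protein gene (horizontal axis, bp, positive downstream) as peaks per 250 bp (vertical axis), for control replicate 1 above and Paro/Neo replicate 2 below. In both lists the bins on either side of the start (dotted line) hold the most peaks, 24 of 48 and 48 of 109 in all, with a scatter of further peaks mainly downstream.

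Peaks over member starts were weak in control replicate 1. Their median fold was 2.85 and their median percentile 8.02 (19 peaks, 15 below the 50th percentile), while peaks over the starts of other genes had a median percentile of 50.3 (1987 peaks) and peaks over no annotated start 49.9. In Paro/Neo replicate 2 the median fold was 3.08 and the median percentile 48.0 (48 peaks), against 58.2 for other starts (4714 peaks) and 47.6 for no start. The 3 member peaks of Paro/Neo replicate 1 had a median percentile of 8.53, against 45.7 for other starts. Percentiles rank peaks within a list and cannot be set against each other between lists of unequal length. The difference between members and other starts was not tested.

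**Figure D4:**
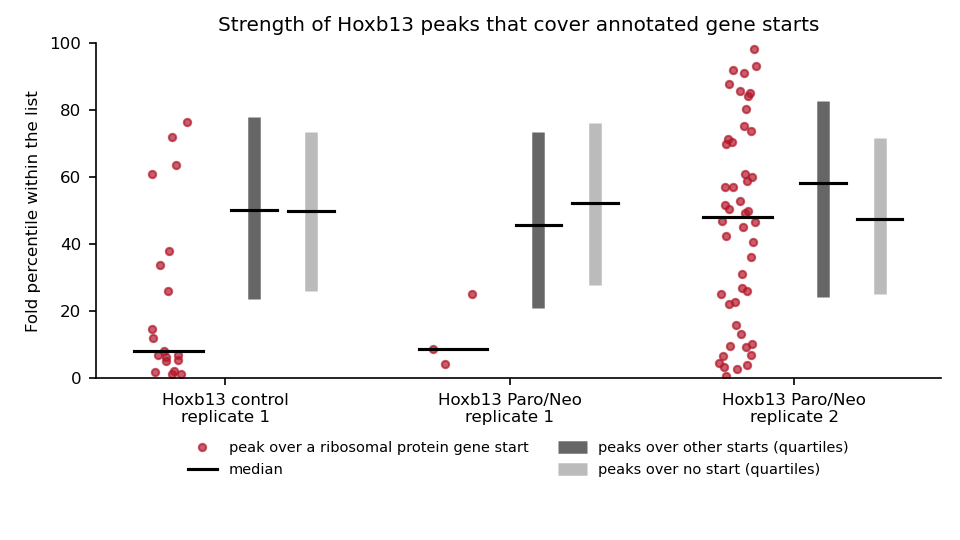
Fold percentile within the list (vertical axis) of Hoxb13 peaks over annotated starts of ribosomal protein genes (red points, 1 per peak, with the median as a black line), beside the quartiles and median of peaks over other starts (dark bars) and over no annotated start (light bars), in the 3 libraries with member starts covered (horizontal axis). In control replicate 1, 15 of 19 points lie below the 50th percentile, while in Paro/Neo replicate 2 they spread from 0.672 to 98.3.

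The small subunit reads messenger RNA. Of its 31 members, 17 had a Hoxb13 peak in control replicate 1 and 29 in Paro/Neo replicate 2, against 1 and 2 in control replicate 2 and Paro/Neo replicate 1. The shares were 54.8% and 93.5% in the long lists, where those of all genes were 24.2% and 46.5%. In the short lists they were 3.23% and 6.45%, against 5.79% and 4.2% of all genes. Both exceptions in Paro/Neo replicate 2 were Rps3 and Rps4x. Rps3, at the messenger RNA entry site, had a peak over its start in control replicate 1 alone (fold 3.13, percentile 33.8). Rps4x, encoded on the X chromosome, had none in any library and no other protein-coding gene in its window.

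Rps25, which serves translation from some internal entry sites, carried the highest fold of all members in both long lists. Its peaks had a fold of 5.44 (percentile 97.9) in Hoxb13 control replicate 1, 3.11 (20.2) in control replicate 2, 3.57 (53.7) in Paro/Neo replicate 1 and 4.96 (98.3) in Paro/Neo replicate 2. All 4 libraries thus had a peak here, high in the long lists and middling or low in the short ones. These peaks all overlapped Trappc4, the neighbouring gene of a vesicle tethering complex. In 3 libraries they ended 141 to 471 bp before Rps25, and only the widest, in Paro/Neo replicate 2 (chr9:44406669-44408094), reached the Rps25 start shown above. The data do not assign this region to either gene.

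Rps3a1 had its start covered in Hoxb13 Paro/Neo replicate 1 (fold 2.99, percentile 8.53) and in Paro/Neo replicate 2 (fold 3.97, percentile 91.9), and had no peak in either control library. No other protein-coding gene lies in its window. Both Paro/Neo libraries have a peak here and both controls none, but at 1 gene this pattern was picked out after the values were seen and has no test. Rps6, the target of S6 kinases, had a peak over its start in control replicate 1 (fold 3.17, percentile 37.9) and Paro/Neo replicate 2 (fold 3.22, percentile 61.1). Rps19, mutated in Diamond-Blackfan anaemia, had its start covered in the same libraries at folds of 2.63 and 2.93, with percentiles of 1.15 and 31.2. Rpsa, also known as a laminin receptor, and Rps27 had a peak over the start in Paro/Neo replicate 2 only, near the bottom of the list at percentiles 3.18 and 2.56.

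Rps28 and Rpl18 reached 3 or more libraries only because merged regions ran out of their windows. Rps28 had peaks in 2 Hoxb13 libraries, the region shared by all 4 reaching into Kank3, a neighbour, while its own start was covered in Paro/Neo replicate 2 (percentile 85.0). Rpl18 likewise had peaks in 2 libraries, overlapping Sphk2. The strongest were of fold 3.65 in control replicate 1 and 3.70 in Paro/Neo replicate 2.

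The large subunit joins the amino acids. Of its 43 members, 25 had a Hoxb13 peak in control replicate 1 and 42 in Paro/Neo replicate 2, and the exception, Rpl29, had a peak in control replicate 1. The numbers in control replicate 2 and Paro/Neo replicate 1 were 1 and 3. The large-subunit shares were 58.1% and 97.7% in the long lists, where those of all genes were 24.2% and 46.5%. In the short lists they were 2.33% and 6.98%, against 5.79% and 4.2% of all genes. Rpl7a, which stabilises ribosomal RNA, had its start covered in 3 libraries, with folds of 2.68 in control replicate 1, 2.77 in Paro/Neo replicate 1 and 3.21 in Paro/Neo replicate 2 and percentiles of 1.73, 4.14 and 59.97. The position recurred while the peaks ranked near the bottom of the first 2 lists. Rpl5, which binds the smallest ribosomal RNA and the p53 regulator Mdm2, had peaks at or just after its start in the same 3 libraries, at folds of 3.13, 3.25 and 2.81. Their percentiles were 33.3, 25.1 and 16.7, low in each list. Rpl11, its partner in that complex, had a peak in Paro/Neo replicate 2 alone, over its start (fold 2.86, percentile 22.1).

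Several large-subunit genes owed their high rank to peaks in a neighbour. Rpl35 had a peak of fold 4.69 in control replicate 1 and 4.46 in Paro/Neo replicate 2 (percentiles 95.7 and 96.5), 2660 to 2774 bp upstream in Arpc5l, while the peak over its own start in control replicate 1 ranked at 6.73. Rpl41 had peaks in Zc3h10, downstream, with folds of 4.40 and 3.46 in control replicates 1 and 2 and 4.18 in Paro/Neo replicate 2, and its own start was covered in Paro/Neo replicate 2 at percentile 15.7. Rpl10, a late-joining protein on the X chromosome, had peaks of fold 4.06 and 4.16 in the long lists inside Dnase1l1, and none over its start. Rpl24 had peaks in Zbtb11 in control replicate 1 and both Paro/Neo libraries (folds 2.93, 3.05 and 4.06), and its own start was covered in Paro/Neo replicate 2 at fold 3.54 (percentile 80.3). In the strongest 10% of control replicate 1 there were 5 of 57 distinct member peaks, all of them outside the member and 4 overlapping another gene. The same class of Paro/Neo replicate 2 held 14 of 141, so both counts lay near 10%. Of the 14, 7 lay outside every member, 8 overlapped another gene and 4 covered a member start. Those 4 starts were of Rps25, Rpl39, Rps3a1 and Rps10.

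Rpl39, which lines the exit tunnel, had its only peak in Paro/Neo replicate 2, over its start, at fold 4.07 (percentile 93.2), with no other protein-coding gene in its window. Rpl32 and Rpl22l1, the latter a paralog of Rpl22, had peaks within the gene in the same library at folds of 4.09 and 4.05 (percentiles 93.6 and 92.9). Rpl3, at the peptidyl transferase centre, had a peak outside the gene in control replicate 1 (fold 3.67) and one overlapping an end in Paro/Neo replicate 2 (fold 3.40). At the low end, Rpl15 had its start covered in both long lists at folds of 2.65 and 2.42 (percentiles 1.33 and 0.672). Rpl34 had its start covered in the same lists at percentiles 8.02 and 6.58, and the peak at Rpl14 (percentile 3.86) lay 2178 bp downstream. The recurrence of Rpl15 and Rpl34 in both lists was thus at low rank in each.

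The stalk proteins recruit translation factors to the ribosome. Rplp0 had its start covered in both long lists, at fold 2.82 (percentile 6.15) in control replicate 1 and 3.37 (71.5) in Paro/Neo replicate 2. Rplp2 had its start covered in Paro/Neo replicate 2 (fold 3.70, percentile 85.8), and Rplp1 had a peak overlapping an end there at percentile 39.0. None of these genes had a peak in the 2 short Hoxb13 lists or in Meis1.

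The 12 paralogs, retrogenes and partner proteins mostly arose by duplication or reverse transcription of a ribosomal protein gene. A Hoxb13 peak was found at 4 of them in control replicate 1 and at 6 in Paro/Neo replicate 2, shares of 33.3% and 50%. The shares of all genes were 24.2% and 46.5%, and those of genes length-matched to the whole set 19.8% and 34.2%. Shares of genes matched to the lengths of these 12 alone are not given here. Whether the 12 differ from genes of their own length was not tested. The 6 without a peak in any Hoxb13 library were Rpl10l, Rpl32l, Rpl37rt, Rpl39l, Rps23rg1 and Rps27rt, which with Rps4x make up the 7 members without Hoxb13 peaks. Rpl3l, the form of Rpl3 found in heart and skeletal muscle, had peaks in both long lists. The strongest lay at or just past its downstream end, at fold 3.70 (percentile 79.2) in control replicate 1 and 3.74 (86.9) in Paro/Neo replicate 2, and an annotated start was covered in the latter list at percentile 36.2. It had no Meis1 peak. Rps19bp1, which encodes a regulator of the deacetylase Sirt1 and no ribosomal protein, was the other gene with peaks in all 4 Hoxb13 libraries, with folds of 4.37 in control replicate 1, 3.33 in control replicate 2, 3.43 in Paro/Neo replicate 1 and 4.89 in Paro/Neo replicate 2. These peaks lay 1658 to 2137 bp from the gene, and in 3 of the 4 libraries they overlapped Atf4, the gene of a stress-response transcription factor. Of 318 annotated ribosomal protein pseudogenes, which resemble the messages in sequence, none overlapped a peak in Paro/Neo replicate 2, where 0.93% of 10111 other pseudogenes did, and 1 overlapped a peak in control replicate 1.

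Ribosomal protein genes often lie close to other genes, and a peak between neighbours cannot be assigned to either from these lists. Another protein-coding gene lay in the window of 66 members (74.2%), against 49.3% of length-matched genes. Among these 66, 57.6% had a peak in control replicate 1 and 90.9% in Paro/Neo replicate 2, against 31.2% and 53.7% of matched genes with a neighbour. Among the 23 members with no neighbour, 39.1% and 87.0% had a peak, against 8.23% and 14.2% of matched genes. The excess was thus present in both kinds of neighbourhood. The 30 members that hold small nucleolar RNA genes within their span had a peak in 53.3% and 96.7%, and the 59 others in 52.5% and 86.4%, for control replicate 1 and Paro/Neo replicate 2.

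The promoter windows of the members, from 250 bases before to 50 after the start, were searched for fixed motifs on both strands (81 windows of 69 members, against 21263 windows of all protein-coding genes). The Meis motif TGACAG was in 11.1% of member windows and 18.7% of all windows, and the Hoxb13 motif TTTATNG in 7.41% and 9.58%. Both shares were lower in member windows, that of the Hoxb13 motif resting on 6 of 81 windows, and neither difference was tested. The ETS motif CCGGAAG was in 33.3% of member windows against 11.6% of all, and the YY1 motif AAGATGGC in 9.88% against 3.05%. The NFY motif CCAAT was in 30.9% against 38.2%. A start at C after C or T, followed by at least 4 pyrimidines, was found in 16.05% of member windows and 1.73% of all. It marked 13 members, among them Rpl15, Rps6, Rps27, Rplp2 and Rpl14, and 10 of the 13 had a start covered in Paro/Neo replicate 2. That is 20.8% of the 48 members with a start covered there, against 14.3% (3) of the 21 without, a difference that was not tested.

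The share of starts under Hoxb13 peaks was higher with the ETS motif than without it, at members and elsewhere, and these differences were not tested. In Paro/Neo replicate 2, 22 of 26 members with the motif had a start covered (84.6%), against 26 of 43 without it (60.5%). Among other genes the shares were 49.9% with and 25.8% without the motif. The shares in control replicate 1 were 34.6% and 23.3% at members, and 21.4% and 10.7% at other genes. For the Hoxb13 motif, 5 of 6 members with it had a start covered in Paro/Neo replicate 2 against 43 of 63 without it, while among other genes the shares were 20.0% with and 30.1% without it. The YY1 motif in that library gave 66.7% with and 69.8% without it at members, and 52.9% and 28.0% at other genes. NFY gave 59.1% and 74.5% at members and 32.0% and 26.6% at other genes, but 36.4% and 23.4% at members in control replicate 1. Meis gave 77.8% and 68.3% at members and 25.9% and 29.7% at other genes of Paro/Neo replicate 2. None of these was tested. GC content moved with these calls: windows of other genes had a median of 63.0% GC where the start was covered and 53.0% where it was not. Member windows had 59.3% and 52.8%. The part of GC content in these shares was not tested.

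Other gene lists of housekeeping and energy functions were read in the same way, each against its own length-matched genes. In Hoxb13 control replicate 1 and Paro/Neo replicate 2, 45.5% and 87.5% of 88 genes of the respiratory chain and ATP synthase had a peak, against 23.1% and 42.2%. For 78 mitochondrial ribosomal protein genes the shares were 33.3% and 75.6%, against 23.9% and 43.6%, and for 62 translation factor genes 33.9% and 66.1%, against 25.9% and 48.8%. Ribosomal protein genes, with 52.8% and 89.9%, stood at the top of the 4 lists in these libraries, just above the respiratory chain. The order was different in the short lists. In control replicate 2, 17.7% of translation factor genes and 10.2% of respiratory chain genes had a peak (matched 6.29% and 6.06%). That library had a peak at 3.37% of ribosomal protein genes (matched 5.91%). In Paro/Neo replicate 1 the shares were 7.95% of respiratory chain genes (matched 4.25%) and 6.74% of ribosomal protein genes (matched 4.15%). Starts were covered in Paro/Neo replicate 2 for 69.6% of ribosomal protein genes, 66.2% of respiratory chain genes, 53.6% of mitochondrial ribosomal protein genes and 45.8% of translation factor genes. The matched shares of starts were 22.3%, 27.3%, 27.7% and 30.9% in that order. Differences between lists were not tested.

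**Figure D5:**
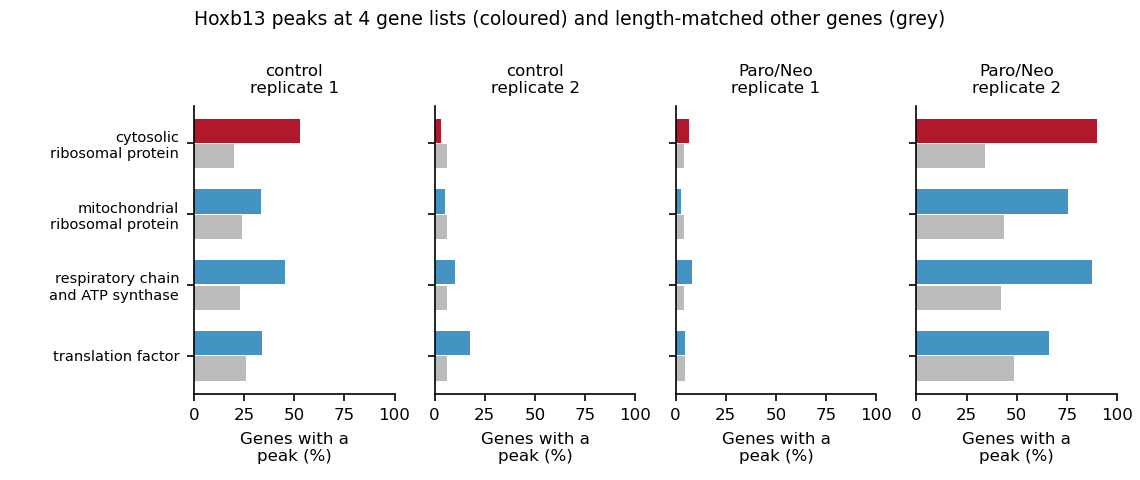
Percent of genes with a Hoxb13 peak in the gene body or 5 kb on either side (horizontal axes) for ribosomal protein genes (red) and 3 other lists (blue), each beside its own length-matched genes (grey), in the 4 Hoxb13 libraries (panels). In control replicate 1 and Paro/Neo replicate 2 ribosomal protein genes reach 52.8% and 89.9%, and in the other libraries no list exceeds 17.7%.

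Of 22 genes for ribosome assembly and its control, 8 had a peak in Hoxb13 control replicate 1 and 19 in Paro/Neo replicate 2, shares of 36.4% and 86.4% against 25.6% and 49.8% of length-matched genes. The short Hoxb13 lists had 2 each (9.09%, matched 5.96% and 4.29%). In Meis1, 2 and 3 of them had a peak in the control libraries (9.09% and 13.6%, matched 8.48% and 8.18%) and none in Paro/Neo, so outside the long lists the counts lay within 2 genes of the matched shares. Ubtf, which activates transcription of ribosomal RNA genes, had a peak in all 4 Hoxb13 libraries, at percentiles from 16.7 in control replicate 2 to 78.9 in Paro/Neo replicate 2, and in Meis1 control replicate 1 (12.4). Polr1b, a subunit of RNA polymerase I, had a region in both Meis1 control libraries, at percentiles 20.4 and 17.2. Ncl, the nucleolar protein nucleolin, had a peak in both long Hoxb13 lists (46.0 and 6.26), and Mtor in control replicate 2 and Paro/Neo replicate 2 (41.4 and 31.6). Larp1, Npm1 and Myc had a peak in Paro/Neo replicate 2 alone, at percentiles 89.996, 22.3 and 40.1. Fau, which encodes a further small-subunit protein under another name, had no peak in any library.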

How the data were processed

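Peak lists of 8 ChIP-seq libraries were used, 1 list per library. The tools the authors list, per the submitters' processing notes, are Bowtie2, MACS2, HOMER, FastQC 0.11.5 and Picard 1.127, on build mm10. Neither the options nor the control of the peak caller is given there. The deposited fold of each peak is the authors' ratio of its signal over background, and each peak also has the authors' −log10 p and −log10 q, the latter at least 1.00. Folds ranked peaks only within their own list, as percentiles of which 100 is the strongest. Peaks on the mitochondrial genome (24 in all lists) were left out. Depth is unknown and limits every absent peak.

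Gene positions, starts and promoter sequences came from RefSeq tables of GRCm38.p6, and 20 members have no entry in the promoter table. A gene had a peak when 1 bp or more of a peak lay in the gene or 5 kb on either side. Length-matched shares came from other genes in 20 length classes, weighted by the members' classes. Groups were taken from the labels, and libraries of a group were compared by exact permutation tests over libraries, whose p-values measure only the spread between these libraries. Scripts ran in Python 3.11.15 with numpy 2.4.6 and pandas 2.3.3 and were tested on simulated data. Named members were those with a Hoxb13 region in 3 or more libraries, those with a Meis1 peak, the 12 highest and 5 lowest by percentile in the longest list, and 12 named for their function. Of these, 1 gene is not reported here by name or drawn in the plot by gene, and it is included in all counts. Further genes (Rps3, Rpl29, Rps10, the members without a peak and some with a start at C) were named after their values were seen. The members and lists were chosen with earlier results of these data known.

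Alternatives covered the length matching, flank, q limit, overlap, equal list lengths, paralogs and each library left out. Matching on neighbourhood as well as length, leaving out retrogenes, peaks over annotated starts, the crossed block and the exchanged second Meis1 replicates were added after seeing the data.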

Additional observations from a re-analysis of the deposited data

How the results depend on the processing

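Directions were kept under most alternatives, and no difference between treatment groups could pass a threshold with 2 libraries against 2. The Meis1 treatment difference in excess, −0.224 points, turned to 0.0277 points with 8 lists of equal length, to 0.0604 with equal lengths within an antibody to 0.0895 when genes were also matched on neighbourhood and to 0.109 with the second replicates exchanged, and ran from −0.529 to 0.0809 with single libraries left out (0.0809 without control replicate 2). It was −0.725 and −0.985 at −log10 q limits of 2 and 3 (exact permutation p = 0.333 for both, the smallest possible). The Hoxb13 treatment difference ran from −12.6 (without Paro/Neo replicate 2) to 40.4 points and was −3.86 without control replicate 2. The difference between the antibodies in treatment effect ran from −12.4 to 40.7 and was −3.64 without Hoxb13 control replicate 2. The excess of Hoxb13 over Meis1 libraries ran from 11.99 to 31.4 points with single libraries left out, the latter without Hoxb13 control replicate 2 (exact permutation p = 0.0286, the smallest possible). With 8 lists of equal length the Hoxb13 treatment difference was 0.333 points and that between antibodies 1.33 (1.52 with equal lengths within an antibody, and 11.3 at a −log10 q of at least 3). Members with a Hoxb13 region in 2 or more libraries, 45, numbered 26 at a −log10 q of at least 2, 10 at 3 or more, and 4 with either kind of equal list length, and with a library left out from 6 to 45 (9 without control replicate 1). Stricter and shorter lists hold fewer peaks. The shares of other genes with such a region at these settings are not given here, and the cause of these shifts was not tested.

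With the replicate number as a block, differences were −0.224 points in Meis1 (exact permutation p = 0.5) and 13.9 in Hoxb13 (exact permutation p = 1), and that between antibodies 14.1 (exact permutation p = 0.625). The labels do not say that numbers pair libraries. Deviations of same-numbered Hoxb13 libraries correlated over genes at −0.431, and the crossed pairing gave an exact permutation p of 0.5.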
